A study of Mus musculus with 9 samples.

Results

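Hox genes were followed in single cells sorted from the ventral midbrain of the mouse. The genes were chosen by name, as the protein-coding entries of the Hoxa, Hoxb, Hoxc and Hoxd clusters in the deposited count table. This gave 28 entries out of 32695 gene entries, for 27 gene symbols, since Hoxd4 is listed under ENSMUSG00000101174 and under ENSMUSG00000115956. The annotation of GRCm38 holds 39 such genes, and the other 12 were not analysed here. They were read in 2035 cells. These are the wells in which 2000 genes or more were detected, with no more than 50000 counts and a mitochondrial share under 15%. In all, 478 Hox counts were found in 88 of the 2035 cells, and 27 of the 28 entries had at least 1 count, the exception being Hoxa9.

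All mice were VGAT-Cre:Ai14:Pitx3-GFP. In these mice Cre is made from the locus of the vesicular GABA transporter gene Slc32a1 (VGAT), Ai14 leaves the red protein tdTomato in every cell that has ever made Cre, and GFP marks cells with the dopamine neuron factor Pitx3. VGAT plates held cells with tdTomato, 4 plates from E16.5 embryos (1026 cells) and 3 plates from P0.5 pups (434 cells), whereas VGAT+Pitx3 plates held cells with both proteins, 1 plate for each stage (304 cells at E16.5 and 271 at P0.5). The labels give the stages as E16 and P0. The column names also carry a second plate label, which gives the other stage for VGAT E16.5 replicates 3 and 4 and VGAT P0.5 replicates 1 and 3. The first label was used because it matches the sample titles, and differences between stages are given by both. A plate is the replicate, and since no source says which animals went onto which plate, p-values measure only the spread between plates. Kept cells gave 1434306 to 5403472 counts per plate, and the median cell of a plate had between 7039 and 33235.5 counts. In the 1076 cells without a Hox count on the 6 plates used for tests within plates, Gad1, which makes GABA, was found in 1061.

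Hox genes encode homeodomain transcription factors that mark position along the body axis. Within each cluster, genes of low paralogue number begin to be expressed further forward than genes of high number, and in the brain the front limit of the whole family lies in the hindbrain, with Hoxa2 reaching furthest forward. Midbrain neurons arise in front of that limit, from tissue patterned by Otx2 and En1, and Hox expression that starts in the early hindbrain is often kept by the neurons that arise there.

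Promoter sequences are shown for 3 genes that carry the results below, because Hox promoters are known to be read by Hox proteins themselves together with the partner factors of the PBX and MEIS families. Hoxa2 stands for the genes found in many single cells, and Hoxb8 and Hoxa5 for the genes found almost wholly in a few cells. Each window runs from 250 bases before the start of the gene to 50 bases after it, on the gene's own strand (RefSeq, GRCm38.p6), and capitals mark matches on either strand to the PBX/HOX motif TGATNNAT or the MEIS motif TGACAG. The Hoxa2 window is chr6:52164782-52165081, minus strand. It held 1 PBX/HOX match and 1 MEIS match. The Hoxb8 window is chr11:96281655-96281954, plus strand, and held 1 PBX/HOX match. The Hoxa5 window is chr6:52204538-52204837, minus strand, and held neither.
Hoxa2: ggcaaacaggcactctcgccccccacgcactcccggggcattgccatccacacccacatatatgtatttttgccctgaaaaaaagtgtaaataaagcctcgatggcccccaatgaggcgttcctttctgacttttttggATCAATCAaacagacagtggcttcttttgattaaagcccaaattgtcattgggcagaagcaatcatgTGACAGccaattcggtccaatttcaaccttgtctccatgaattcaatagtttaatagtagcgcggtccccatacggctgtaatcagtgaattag
Hoxb8: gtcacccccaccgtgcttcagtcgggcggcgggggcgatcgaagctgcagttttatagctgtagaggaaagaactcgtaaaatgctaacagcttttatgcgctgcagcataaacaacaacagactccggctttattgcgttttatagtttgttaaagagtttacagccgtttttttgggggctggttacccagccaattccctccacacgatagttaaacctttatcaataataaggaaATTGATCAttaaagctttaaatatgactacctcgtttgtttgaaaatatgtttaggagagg
Hoxa5: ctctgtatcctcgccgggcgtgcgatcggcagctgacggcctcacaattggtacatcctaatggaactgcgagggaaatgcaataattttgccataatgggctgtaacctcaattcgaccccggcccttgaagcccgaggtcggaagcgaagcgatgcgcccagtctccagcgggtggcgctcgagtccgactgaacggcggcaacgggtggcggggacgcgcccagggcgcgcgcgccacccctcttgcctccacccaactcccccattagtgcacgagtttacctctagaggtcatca
Of the symbols, 14 matched the promoter table, with 15 windows. The PBX/HOX letters were in 3 of the 15 windows (20%), those of Hoxa2, Hoxb8 and 1 window of Hoxd11, against 8.85% of all 32851 promoters of the same length. The MEIS letters were in 2 of the 15 (13.3%), those of Hoxa2 and Hoxa3, against 19.2% of all promoters. Hoxb2 and Hoxb3 are named only. A match describes letters, and binding was not measured.

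Hox counts were not spread evenly over genes or cells. Of the 478 counts, 347 (72.6%) lay in only 7 cells, and these 7 cells all came from VGAT E16.5 replicate 3. They had 7 to 19 Hox entries each, whereas the other 81 positive cells had 3 at most. The 7 cells are called many-Hox cells here, a limit that was set after the values had been seen. In the other 81 cells, 54 had a single Hox count, 66 had counts of 1 Hox entry, 12 of 2 and 3 of 3.

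**Figure D1:**
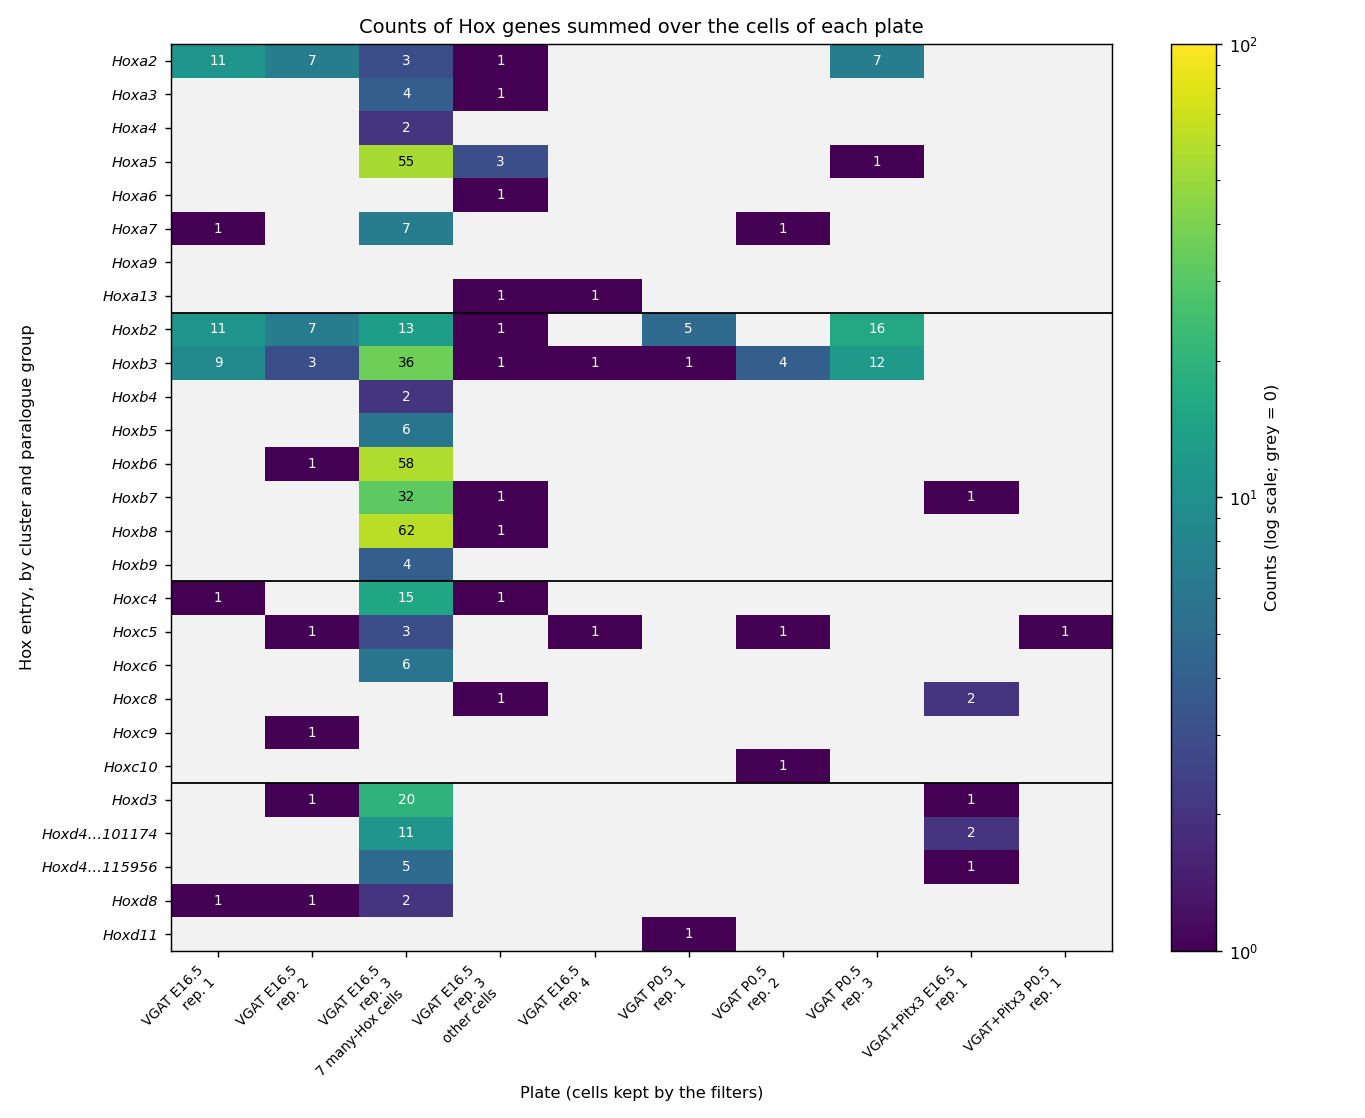
Counts of 27 of the 28 Hox entries (rows, ordered by cluster and paralogue group) summed over the cells of each plate (columns, with VGAT E16.5 replicate 3 divided into its 7 many-Hox cells and its other cells), with colour on a log scale and grey for 0. Hoxa2, Hoxb2 and Hoxb3 had counts on several VGAT plates and 0 on both VGAT+Pitx3 plates, whereas most other genes were counted mainly in the many-Hox column.

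The sum of a plate shows the same division by gene. Paralogue groups 2 and 3 (Hoxa2, Hoxb2, Hoxa3, Hoxb3 and Hoxd3) made up 76.3% of the counts of the 81 cells but 21.9% of those of the many-Hox cells. Groups 4 to 9 made up 19.8% and 77.8%.

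Hoxa2, Hoxb2 and Hoxb3 were the genes found in most cells. Hoxa2, which sets the identity of the anterior hindbrain and of the second branchial arch (chromosome 6, 52162417 to 52164831, minus strand), had 29 counts in 20 cells. The counts were 11, 7, 4 and 0 on the 4 VGAT E16.5 plates in the order of their replicate numbers, 0, 0 and 7 on the 3 VGAT P0.5 plates, and 0 on both VGAT+Pitx3 plates. Hoxa2 was thus seen at both stages, but on 1 of 3 plates at P0.5.

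Hoxb2, a gene of the hindbrain needed for facial motor neurons (chromosome 11, 96350525 to 96354012, plus strand), had 53 counts in 31 cells, more cells than any other Hox gene. On the VGAT E16.5 plates it had 11, 7, 14 and 0 counts, on the VGAT P0.5 plates 5, 0 and 16, and on the VGAT+Pitx3 plates 0 and 0. Of the 14 counts on VGAT E16.5 replicate 3, 13 were in many-Hox cells.

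Hoxb3, which acts in the more posterior hindbrain (chromosome 11, 96323326 to 96347930, plus strand), was found on all 7 VGAT plates, with 67 counts in 29 cells. Its counts were 9, 3, 37 and 1 at E16.5 and 1, 4 and 12 at P0.5, and 0 on both VGAT+Pitx3 plates. On VGAT E16.5 replicate 3, 36 of the 37 counts were in many-Hox cells. The antisense gene Hoxb3os overlaps Hoxb2 and Hoxb3, and since the strand used in counting is not given in the sources used here, reads of the 3 genes cannot be told apart where they overlap.

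These 3 genes were mostly counted in different cells, but a cell with a count of one of them had another more often than cells in general. Among the 1453 cells of the VGAT plates outside the many-Hox cells, Hoxa2 was found in 18, Hoxb2 in 25 and Hoxb3 in 22. Hoxa2 and Hoxb2 were both found in 5 cells, Hoxa2 and Hoxb3 in 4, and Hoxb2 and Hoxb3 in 5. Of the Hoxa2 cells 27.8% thus had Hoxb2, beside 1.72% of all 1453 cells, and 22.2% had Hoxb3, beside 1.51%. Of the Hoxb2 cells 20% had Hoxb3. The differences were not tested, and deeper cells are more likely to show any gene. In 53 of the 81 cells all Hox counts were of these 3 genes. The 53 cells had 97 counts, at most 7 in a cell, and came from all 7 VGAT plates. With 31 of the 53 at a single count, a gene that is not counted in a cell may still have been expressed there.

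Cells with any Hox count were more frequent on most VGAT plates than on the VGAT+Pitx3 plates. At E16.5 the 4 VGAT plates had 7.37%, 7.46%, 6.27% and 0.984% positive cells (14 of 190, 17 of 228, 19 of 303 and 3 of 305), a mean of 5.52% ± 3.07 (SD, n = 4). Replicates 1 to 3 lay together, and replicate 4 had about as few as the VGAT+Pitx3 plates. At P0.5 the 3 VGAT plates had 11.4%, 2.28% and 11.1% (5 of 44, 5 of 219 and 19 of 171), a mean of 8.25% ± 5.17 (SD, n = 3). The ranges of the stages overlapped. By the second plate label the order was the reverse, 9.32% ± 2.21 (SD, n = 4) at E16.5 and 3.18% ± 2.76 (SD, n = 3) at P0.5, and the ranges (7.37 to 11.4% and 0.984 to 6.27%) did not overlap. The VGAT+Pitx3 plates had 1.32% at E16.5 (4 of 304, exact 95% binomial interval 0.360 to 3.33%) and 0.738% at P0.5 (2 of 271, 0.0895 to 2.64%), and intervals cover counting error only. Among the VGAT plates, replicate 4 at E16.5 (0.203 to 2.85%) and replicate 2 at P0.5 (0.745 to 5.25%) had intervals that overlapped both of these.

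**Figure D2:**
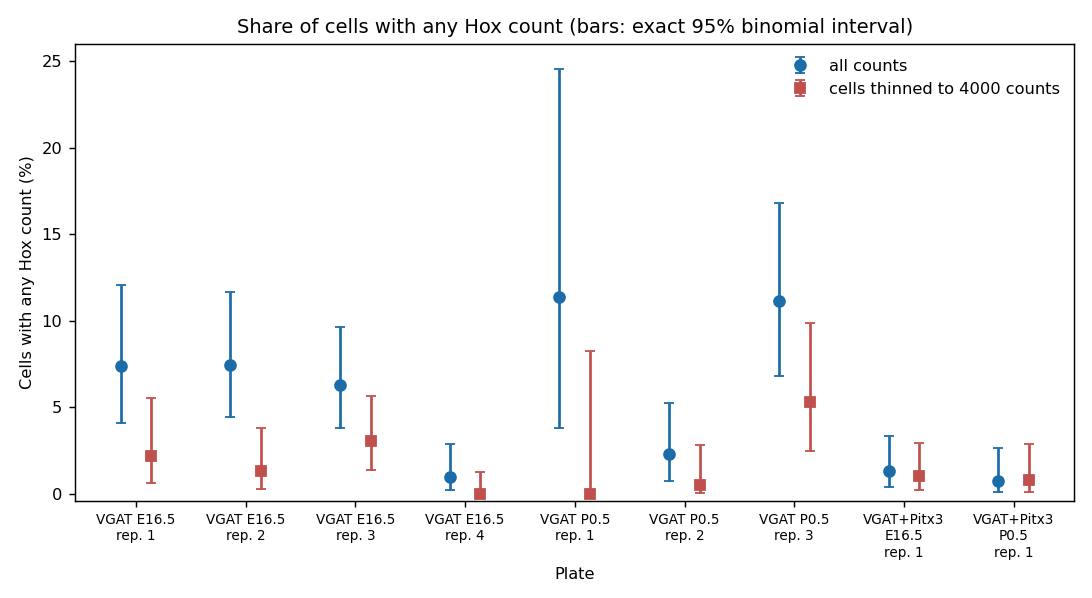
Share of cells with any Hox count on each plate (vertical axis, percent), with all counts (circles) and after each cell was thinned to 4000 counts (squares), where lines are exact 95% binomial intervals. The share fell from 5.52% to 1.63% on average at VGAT E16.5 and from 8.25% to 1.95% at VGAT P0.5, with 5.33% left on VGAT P0.5 replicate 3.

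Depth went with these shares only in part. Cells with a Hox count had a higher median count than cells without on 7 of 9 plates, and the plate with the highest share, VGAT P0.5 replicate 1, had the deepest cells, with a median of 33235.5 counts. VGAT P0.5 replicate 3 had 11.1% at a median of 18181 counts, and its positive cells were not deeper. VGAT E16.5 replicates 3 and 4 had 6.27% and 0.984% at medians of 16673 and 15593. When each cell was thinned to 4000 counts, which left out 79 cells, the VGAT E16.5 plates had 2.19%, 1.32%, 3.02% and 0% positive cells and the VGAT P0.5 plates 0%, 0.515% and 5.33%. The VGAT+Pitx3 plates had 1.00% and 0.803% (3 of 299 and 2 of 249 cells). These shares rest on a single random draw and on few cells, such as 3 of 228 on VGAT E16.5 replicate 2. At this depth only VGAT P0.5 replicate 3 and VGAT E16.5 replicates 1 to 3 were above both VGAT+Pitx3 plates, and the thinned means of the stages, 1.63% ± 1.29 (SD, n = 4) and 1.95% ± 2.94 (SD, n = 3), differed by less than their spread. Thinned to 8000 counts instead, which left out 488 cells, the VGAT E16.5 plates had 4.46%, 4.63%, 4.12% and 0%, the VGAT P0.5 plates 2.33%, 2.35% and 5.26% and the VGAT+Pitx3 plates 0.402% and 0.820%. All VGAT plates but VGAT E16.5 replicate 4 (6 of 7) were then above both VGAT+Pitx3 plates, and the means were 3.30% and 3.31%.

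Hoxa2, Hoxb2 and Hoxb3 were counted on VGAT plates alone. At least 1 of them was found in 11, 13, 10 and 1 cells of the VGAT E16.5 plates and in 4, 3 and 18 cells of the VGAT P0.5 plates, and in 0 of 575 cells of the VGAT+Pitx3 plates, which allows a share of cells with a count of up to 0.639% (upper exact 95% limit, which takes cells as independent and does not bound the share that expressed the genes). Their summed level was 5.65 CPM (counts scaled to a library of 1e6) over all VGAT plates, and the 0 counts on the VGAT+Pitx3 plates lie under a floor of 0.432 CPM (3 counts over both plates). They were therefore at least 13.1-fold lower on the VGAT+Pitx3 plates, and at least 8.56-fold lower without the many-Hox cells (3.70 CPM on the VGAT plates). The 3 genes were picked for being found in most cells, all of which were VGAT cells, so the bounds describe them and support nothing further. VGAT E16.5 replicate 4, with 1 count of them (0.196 CPM), lay under the same floor. Over all 28 Hox entries, which were not picked by level, the VGAT plates had 17.8 CPM and the VGAT+Pitx3 plates 1.30 CPM, and without the many-Hox cells 4.65 CPM and 1.30 CPM (3.59-fold). Taken singly, Hoxa2 was at least 2.54-fold, Hoxb2 at least 4.65-fold and Hoxb3 at least 5.88-fold lower, and without the many-Hox cells at least 2.29-fold, 3.53-fold and 2.73-fold. These bounds cover counting error only, and VGAT+Pitx3 cells were also shallower, with a median of 10484 counts per cell. In sums over a plate, fewer expressing cells and less RNA per cell cannot be told apart.

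When all genes were tested between the sorts on plate sums, with stage as a covariate, 1306 of 14624 genes (8.93%) passed an adjusted p of 0.05 (edgeR quasi-likelihood test, Benjamini-Hochberg adjustment). Of the 28 Hox entries, Hoxb2 and Hoxb3 alone had counts enough to be tested, and 0 were called. The log2 fold change on the VGAT+Pitx3 plates was -5.95 (SE 2.18, adjusted p = 0.136) for Hoxb2 and -6.20 (SE 2.26, adjusted p = 0.134) for Hoxb3, values that depend on the prior count because a group is at 0. Both had an unadjusted p under 0.05, as did 2652 of the 14624 genes (18.1%). DESeq2, which called 9.41% of genes, called both. Without the filter on low counts, where 5.22% of genes passed, 27 Hox entries were tested and Hoxb6, Hoxa5, Hoxb3, Hoxb8 and Hoxb2 were called. Of these, Hoxb6, Hoxa5 and Hoxb8 had at most 1 count outside VGAT E16.5 replicate 3. Hoxb2 was also called with the replicate number as a block (6.21% of genes called) and without VGAT E16.5 replicate 4 (8.36%). Since a member passed the filter only through the VGAT plates, these values are not counted as support for a difference over the family.

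Between stages on the VGAT plates, 624 of 13639 genes (4.58%) passed the same test, and Hoxb2 was the only Hox entry tested. It had 1.69 ± 1.30 CPM (SD, n = 4) at E16.5 and 2.72 ± 2.45 CPM (SD, n = 3) at P0.5, with plates that overlapped. The log2 fold change was 0.84 (SE 0.83, adjusted p = 0.576, edgeR quasi-likelihood test), and 0 Hox entries were called, 0 had an unadjusted p under 0.05 and DESeq2 called 0. Without the filter, where 5.2% of genes passed, Hoxb6, Hoxa5, Hoxb7 and Hoxb8 were called as lower at P0.5, and these are genes of the many-Hox cells. Over all Hox entries the VGAT E16.5 plates had 8.50, 4.15, 66.6 and 0.589 CPM and the VGAT P0.5 plates 4.88, 3.90 and 10.8 CPM. Without the many-Hox cells VGAT E16.5 replicate 3 had 2.47 CPM, and the means were 3.93 ± 3.38 CPM (SD, n = 4) at E16.5 and 6.52 ± 3.72 CPM (SD, n = 3) at P0.5. With the plates grouped by the second plate label the direction turned, to 7.08 ± 3.11 CPM (SD, n = 4) at E16.5 and 2.32 ± 1.66 CPM (SD, n = 3) at P0.5, ranges that did not overlap, and the log2 fold change of Hoxb2 was -1.38 (adjusted p = 0.850, edgeR). No direction between the stages can therefore be read from these plates.

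The 7 many-Hox cells held 112, 59, 54, 47, 28, 24 and 23 Hox counts. They lay in wells 50, 223, 194, 196, 283, 321 and 226 of VGAT E16.5 replicate 3, and their depth (12439 to 26040 counts, median 18713) lay in the range of the other positive cells. Their Hox level was 2517 CPM. The 53 cells with Hoxa2, Hoxb2 or Hoxb3 only had 82.7 CPM, and were chosen for having a count.

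**Figure D3:**
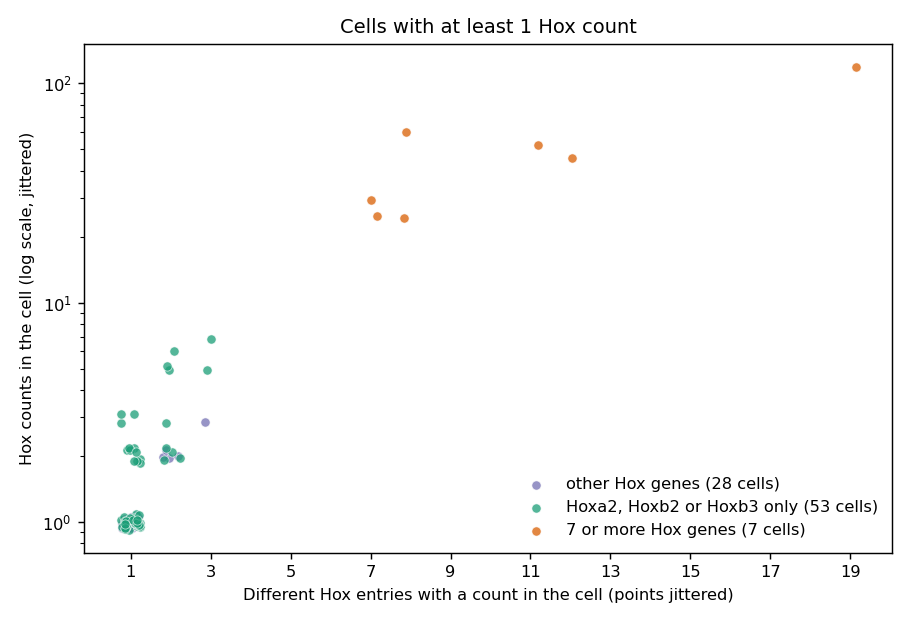
Each point is 1 of the 88 cells with a Hox count, placed by the number of Hox entries counted in it (horizontal axis) and its Hox counts (vertical axis, log scale), with small random shifts so that points can be seen. The 7 many-Hox cells lie apart at 7 to 19 entries and 23 to 112 counts, and all other cells lie at 3 entries or fewer and at 7 counts or fewer.

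Genes of the Hoxb cluster made up 61.4% of the counts in the many-Hox cells. Hoxb8, a gene of the spinal cord and posterior hindbrain, had 62 counts in 7 of 7 cells, from 2 to 20 in a cell, and 1 count in all other cells. Hoxb6 had 58 counts in 7 of 7 cells and Hoxb7 32 in 6 of 7. Hoxb3 was found in all 7, with 2 to 10 counts, and Hoxb2 in 6. All many-Hox cells thus held genes from group 3 or lower up to group 8 or 9.

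Genes of the other clusters were less even among these cells. Hoxa5, which acts in brainstem and spinal respiratory circuits, had 55 counts in 5 cells, 40 of them in the cell with 112 Hox counts. That cell also held all 15 Hoxc4 counts and all 6 Hoxc6 counts of the many-Hox cells. Hoxd3 had 20 counts over 7 of 7 cells. The Hoxd4 entry ENSMUSG00000101174 had 11 counts in 5 cells, but the gene models of Hoxd3 and Hoxd4 overlap on the same strand, as those of Hoxa3 and of Hoxc5 do with their neighbours, so that reads of these genes may have been divided between them. None of the 7 cells had a count of Hoxa6, Hoxa9, Hoxa13, Hoxc8, Hoxc9, Hoxc10 or Hoxd11.

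Outside the Hox family, the many-Hox cells were inhibitory neurons by their genes. Gad1 and Gad2 were found in 7 of 7 and Slc32a1 in 5. Slc6a5, the glycine transporter of glycinergic neurons, was found in 7 of 7 (334 CPM), as was Lamp5 (500.4 CPM). Pax2, a factor of dorsal hindbrain and spinal inhibitory neurons, was found in 6 of 7 at 305 CPM and in 4.23% of the plate's cells without Hox counts. Skor1 and Pax8 were found in 5 each, beside 0.704% and 15.5% of those cells, and Lhx1 in 6, beside 58.1%. Pax5 and the GABAergic selectors were at lower levels than in the plate's cells without Hox counts. Pax5, listed here for the midbrain and isthmus but not read as a sign of position, was found in 5 of 7 (65.3 CPM). Of the selectors, Six3 was found in 4 (29.0 CPM), Gata3 in 3 (21.8 CPM), Gata2 and Tal1 in 1 each and Sox14 in 0. In cells of the same plate without Hox counts Pax5, Six3 and Gata3 were at 298, 494 and 742 CPM. There Gata3 was found in 83.5%, Tal1 in 82.0%, Six3 in 56.3%, Gata2 in 45.1%, Pax5 in 38.0% and Sox14 in 30.6%. En1, En2, Otx2, Meis1, Zfp703, Lmo1, Th and Slc17a6 were at 0 in all 7, but En1 and Otx2 were found in only 30.3% and 27.8% of the plate's cells without Hox counts, so that 0 of 7 says little about them. In clusters built without any Hox entry, 4 of the 7 fell in cluster 3 (GABA-VTA-like) and 3 in cluster 1 (SNr-2-like). The name of cluster 3 rests in part on Otx2, which the 7 cells lacked, and no name was given to the cells.

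Other Hox genes in the remaining cells were near the level of the VGAT+Pitx3 plates. Without the many-Hox cells, genes other than Hoxa2, Hoxb2 and Hoxb3 had 25 counts in 22 cells of the VGAT plates (0.953 CPM) and 9 counts in 6 cells of the VGAT+Pitx3 plates (1.30 CPM). By plate they were found in 1.58%, 1.75%, 3.04% and 0.656% of cells at VGAT E16.5, in 2.27%, 0.913% and 0.585% at VGAT P0.5, and in 1.32% and 0.738% at VGAT+Pitx3. The highest share was that of VGAT E16.5 replicate 3, the plate that also held the many-Hox cells. VGAT cells were deeper (median 16342 counts outside cluster 12, against 10484), and in CPM they were not above the VGAT+Pitx3 cells. Of the 28 cells, 23 had a single count and no gene exceeded 4 counts, and these counts are not read as a difference between the sorts. Their source was not tested. They include the genes of the trunk and limb Hoxc8 (1 count on the VGAT plates, 2 on the VGAT+Pitx3 plates), Hoxc9, Hoxc10, Hoxd11 and Hoxa13.

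Many of the cells with only Hoxa2, Hoxb2 or Hoxb3 fell in a single cluster. Clusters were built from all 9 plates without Hox entries, and cluster 12 of 20 was named Hb-like (hindbrain-like) from the markers Lamp5, Mab21l1, Lmo1, Zfp703 and Slc6a5. It held 73 cells, all from VGAT plates, and 32 of them had a Hox count (43.8%, exact 95% binomial interval 32.2 to 55.9%). By plate these were 4 of 9, 7 of 11, 0 of 1 and 0 of 1 cells at E16.5 and 3 of 6, 1 of 9 and 17 of 36 at P0.5, so that VGAT P0.5 replicate 3 gave more than any other plate. Of the 53 cells with these 3 genes only, 32 (60.4%) were thus in cluster 12, but without VGAT P0.5 replicate 3, where 17 of 18 were, it was 15 of 35 (42.9%). In each of the other 19 clusters the share was 6.25% or less.

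**Figure D4:**
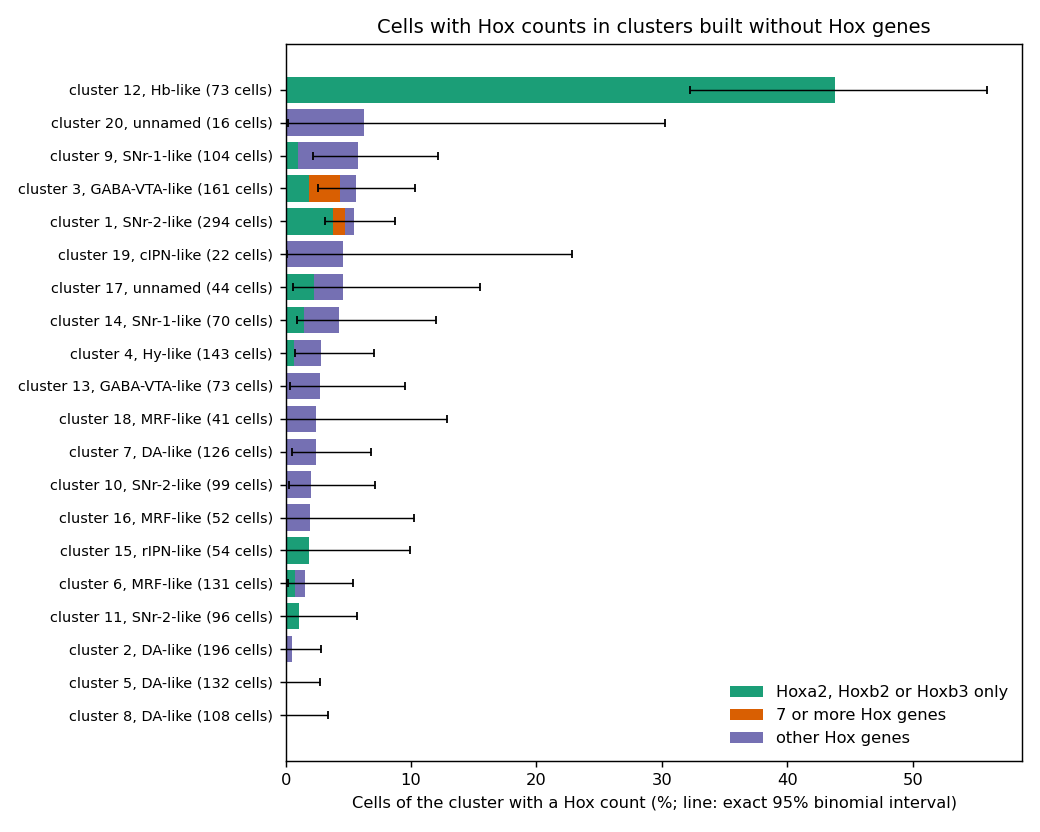
Share of the cells of each of the 20 clusters with a Hox count (bars, percent), divided into cells with Hoxa2, Hoxb2 or Hoxb3 only, many-Hox cells and cells with other Hox genes, with the exact 95% binomial interval of the whole share as a line. Cluster 12 stands at 43.8%, all of it from Hoxa2, Hoxb2 and Hoxb3, and the other clusters at 6.25% or less.

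Within cluster 12, Hoxa2 was found in 12.3% of cells, Hoxb2 in 21.9% and Hoxb3 in 16.4%, with intervals that overlapped. Together they had 44.2 CPM there and 3.70 CPM in the other cells of the VGAT plates, or 1.64 CPM in these without the many-Hox cells, where 21 of 1380 cells (1.52%) had a count. No other Hox gene was found in any of the 73 cells, which allows a share of cells with a count, not of expressing cells, of up to 4.93% (upper exact 95% limit), against 22 of 1380 cells elsewhere (1.59%), a share that this number of cells could not resolve from 0. Depth again moved with detection. The 32 positive cells of cluster 12 had a median of 20338.5 counts and the 41 others 12597. The median depth of the whole cluster (17258) was close to that of the other VGAT cells (16345).

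Genes outside the Hox family were then compared between cells with and without a Hox count on the same plate, on 6 VGAT plates with at least 5 positive cells (79 positive and 1076 negative cells). Of 9658 genes, 26 passed an adjusted p of 0.05 (0.269%), 18 of them higher (0.186%) and 8 lower (0.0828%) in positive cells, in edgeR's quasi-likelihood test with the plate as a block, and 654 (6.77%) had an unadjusted p under 0.05. In 13 of the 26 the direction was the same on all 6 plates.

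Lamp5, which encodes a membrane protein of certain GABAergic synapses, differed most clearly. In positive cells it had 424, 239 and 216 CPM at E16.5 (replicates 1 to 3) and 327, 89.7 and 522 CPM at P0.5, and in negative cells 37.8, 20.6 and 15.1 CPM and 34.5, 23.0 and 47.1 CPM. Every positive value lay above every negative one, but on VGAT E16.5 replicate 3 this rested on the many-Hox cells. They held 69 Lamp5 counts there. The plate's 9 cells with other Hox genes had 1 (6.00 CPM), and its 3 cells with Hoxa2, Hoxb2 or Hoxb3 only had 0. The log2 fold change was 3.44 (SE 0.16, adjusted p = 1.6e-08). The other genes higher on all 6 plates were Pde1c, a calcium-dependent phosphodiesterase (1.55, adjusted p = 0.0123), Chst2, a sulfotransferase (0.97), Ogfrl1 (0.91), Vstm2l (0.86) and Mgat4c (0.68). Lamp5 was called in 16 of 17 alternative settings, Chst2 in 15 and Pde1c in 13, whereas Ogfrl1 and Mgat4c were called in 9 and Vstm2l in 8. Pde1c lost its call without VGAT E16.5 replicate 1 (adjusted p = 0.0598) or 2 (0.0708), and Ogfrl1, Vstm2l and Mgat4c each lost theirs when any one of 3 to 5 plates was left out, among them VGAT E16.5 replicate 2 and VGAT P0.5 replicate 2.

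Of 7 genes lower on all 6 plates, 2 were on the list of midbrain GABAergic selectors read below, Tcf7l2 and Sox14. Neither kept its call without the many-Hox cells. Tcf7l2, an effector of Wnt signals, had 58.1, 39.4 and 475 CPM in positive cells at E16.5 and 5.45, 44.8 and 22.7 CPM at P0.5, and 666, 412 and 563 CPM and 179.8, 254 and 355 CPM in negative cells. The positive cells of VGAT E16.5 replicate 3 overlapped the negative ones, and the others did not. Its log2 fold change was -2.55 (SE 0.43, adjusted p = 0.0203). Sox14, a selector of GABAergic neurons, changed by -1.87 (adjusted p = 0.0435) and the neuropeptide gene Sst by -2.07 (adjusted p = 0.00598). Zfp804a (-1.35), Cbln4 (-1.30), Tox2 (-1.04) and the predicted gene Gm32647 (-0.81) were the others. Sst was called in 15 of 17 alternatives, Zfp804a in 14 and Tox2 in 12, Gm32647 in 10 of 16, and Tcf7l2, Sox14 and Cbln4 in 9 of 17, the last 3 losing the call without VGAT E16.5 replicate 2, VGAT P0.5 replicate 2 or certain other plates.

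**Figure D5:**
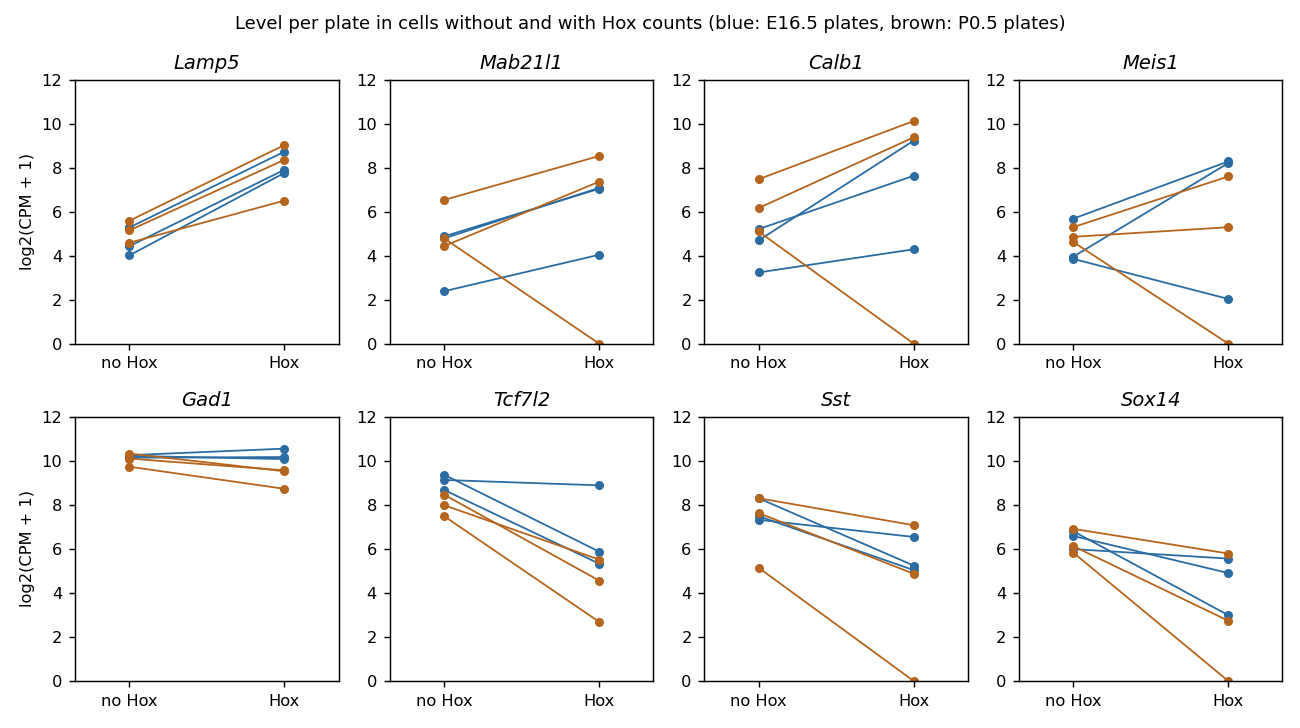
Level of 8 genes (log2 of CPM plus 1) in the cells without and with Hox counts of each of 6 VGAT plates, where a line joins the 2 values of a plate (blue for E16.5, brown for P0.5). With Hox counts Lamp5 was higher on all 6 plates and Tcf7l2, Sst and Sox14 lower on all 6, whereas Mab21l1 and Calb1 were higher on 5 of 6, Meis1 on 4 and Gad1 on 2.

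Genes were also read by lists. Of the 9 partner factors of the TALE family (Meis, Pbx and Pknox), all were tested and 0 passed, with a median log2 fold change of 0.14 beside -0.0088 over all genes tested. Meis1 had the largest value, 2.35 (SE 0.46, adjusted p = 0.0542, edgeR quasi-likelihood test). It had 311, 294 and 3.09 CPM in positive cells at E16.5 and 38.2, 0 and 193 CPM at P0.5. The plate of the many-Hox cells and VGAT P0.5 replicate 2 were thus low. Without the many-Hox cells 1 of the 9 factors passed, Meis1 at 2.43 (adjusted p = 0.0221, same test). Of 12 genes of hindbrain segments and retinoid signalling, 3 were tested and 0 passed (median 0.17). Of 10 genes of midbrain and isthmus patterning, 5 were tested and 0 passed (median -0.61). Of 10 selector genes of midbrain GABAergic neurons, 8 were tested, 0 rose and 2 fell, Tcf7l2 and Sox14 (median -0.98). Without the many-Hox cells neither was called, at -2.40 (adjusted p = 0.0542) and -1.74 (adjusted p = 0.0960), whereas Gata2 rose by 1.41 (adjusted p = 0.0165). Of 10 factors of caudal inhibitory neurons, 3 were tested and 0 passed (median 0.20).

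Lamp5, Mab21l1, Lmo1 and Zfp703, which are among the markers that named cluster 12, were all tested and 3 rose. The list was chosen with results of these same samples known and is no independent evidence. Mab21l1 rose by 2.17 (adjusted p = 6.0e-04) and Zfp703 by 1.99 (adjusted p = 0.0437), and Lmo1 was at 0.57 (adjusted p = 0.765). Zfp703 was higher on 4 of 6 plates and was called in 9 of 17 alternatives, not by DESeq2 (adjusted p = 0.0527), and Mab21l1 was called in 15. Among 7 genes of inhibitory transmission, 6 were tested and 0 passed (median -0.24). Gad1 was at -0.31 and Slc32a1 at -0.0057. Slc6a5 was too low in negative cells for the test, and was found in 32 of 79 positive and 35 of 1076 negative cells. It was found in 0 of the 22 VGAT cells with other Hox genes. Of 10 dopamine neuron genes 3 were tested, of 9 forebrain and hypothalamus genes 1, of 10 genes of other transmitters 0 and of 24 marker genes of astrocytes and radial glia, oligodendrocytes, microglia and vessels 3, and 0 of these passed.

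The many-Hox cells had no counts of Meis1, Zfp703 or Lmo1, and the cells with Hoxa2, Hoxb2 or Hoxb3 only were therefore also compared alone with negative cells, on the 3 plates with at least 5 of them (42 and 539 cells, an alternative added after the data had been seen). Of 11419 genes, 179 passed (1.57%), 82 higher (0.718%) and 97 lower (0.849%). Lamp5 rose by 3.80 (adjusted p = 6.3e-06). Of the 9 TALE factors 3 rose, Meis1 by 3.40 (adjusted p = 0.0018), Meis2 by 2.10 (adjusted p = 2.6e-05) and Pbx3 by 0.82 (adjusted p = 0.0081). The retinoic acid binding proteins Crabp1 (3.62) and Crabp2 (2.58) and the glycine transporter Slc6a5 (3.76) also rose, as did Gata2 (2.17), a selector of midbrain and hindbrain GABAergic neurons. Of the patterning genes, En1 rose (1.52, adjusted p = 0.031), while Otx1 (-4.80) and Pax5 (-2.86) fell, as did Six3 (-2.49), Sox14 (-2.76), Tcf7l2 (-3.59) and the segmental receptor gene Epha4 (-2.62). Of all 53 such cells 32 lie in cluster 12, where Lamp5 and Meis1 are among the leading genes, so the values are not independent of that cluster.

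Positive cells were deeper than negative ones on 4 of these 6 plates, and their part in the differences was not tested beyond thinning. With every cell thinned to 4000 counts, 2 plates kept at least 5 positive cells and 0 genes passed, with Lamp5 still at 3.66 (adjusted p = 0.332). Without the many-Hox cells 29 genes passed (0.3%), 20 of them shared with the 26, and Lamp5 stood at 3.11 (adjusted p = 2.2e-04). Leaving out VGAT E16.5 replicate 3 raised the number to 90, and leaving out VGAT E16.5 replicate 2 or VGAT P0.5 replicate 3 lowered it to 12.

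Spliced and unspliced counts were deposited apart. Unspliced counts made up 19.9% of Hox counts (95 of 478) and 26.0% of the counts of all genes. In the cells with Hoxa2, Hoxb2 or Hoxb3 only they made up 5.15%. They were concentrated in a few entries, 47 of the 59 counts of Hoxb6, 17 of 22 of Hoxd3, 5 of 7 of Hoxc5 and 7 of 13 of the Hoxd4 entry ENSMUSG00000101174, and Hoxb3 had 11 of 67. The gene model of Hoxb6 overlaps the antisense gene Hoxb5os, from which its reads cannot be told apart, and the gene models of Hoxc5, Hoxd3 and Hoxd4 overlap those of neighbours.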

How the data were processed

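Cells were sorted into plates and profiled with SORT-seq, which applies CEL-seq2 to cells in single wells. The authors aligned reads to GRCm38 (mm10) with STAR, counted distinct molecular barcodes per gene and well, and corrected for barcodes shared by chance, so that the deposited values are expected counts (exons and introns together, 3455 wells), which were rounded here. The barcode length is stated differently by the methods and the labels, and 6 bases match the values. Wells were filtered by genes, counts and mitochondrial share, leaving 2035 cells. The same well barcodes recur on every plate (383 well numbers on all 9), and no doublet caller was run. Gene positions are from the GENCODE annotation of GRCm38.

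Plate sums went into the quasi-likelihood test of edgeR 4.0.16 under R 4.3.3, after filterByExpr and TMM scaling, with Benjamini-Hochberg adjustment and a threshold of 0.05. The values of 1 Hox entry and of 1 gene of the lists are not reported here by name. Clusters were made with scanpy 1.11.5 without Hox entries. Shares were also read with each cell thinned to 4000 counts. The tests were also run on simulated data, and the outcome is not reported here. Members and gene lists were chosen with earlier results of these data known. Genes named are the Hox members, the genes of 15 lists (119 of 125 genes are listed), and up to 10 genes in each direction past the threshold with the same direction on every plate. Calb1 and Hrk are named in addition, and passed the threshold without the same direction on every plate. Plate sums of 1434306 to 5403472 counts put 3 counts between 0.555 and 2.09 CPM. As alternatives, DESeq2 1.42.0, RLE factors, spliced counts, no filter on low counts, other limits on cells, other definitions of a positive cell, the replicate number as a block, and each plate left out were tried.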

Additional observations from a re-analysis of the deposited data

Results flagged for a closer look

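VGAT E16.5 replicate 3 stood apart from the other 3 VGAT E16.5 plates in Hox level. Dixon's ratio, the gap of the highest plate to the next divided by the range of the plates, was 0.880 for all Hox entries together (66.6 CPM against 8.50 CPM at most on the others). It was 1 for Hoxa5, Hoxb7, Hoxb8 and the Hoxd4 entry ENSMUSG00000101174, which had 0 counts on the other plates, 0.982 for Hoxb6, 0.949 for Hoxd3 and 0.916 for Hoxc4. Of 17 values looked at, 8 passed the limit that chance passes in about 1 of 20 groups, and the values are not independent, since 347 of the plate's 360 Hox counts lay in the same 7 cells.

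Hox counts were also present in data outside the comparisons. The wells left out held 13 Hox counts, 9 of them in 1378 wells under the minimum of 2000 genes, with 1 count in each of 9 wells. The other entries of the Hox clusters, antisense and long non-coding RNAs, had 30 counts in 28 cells of the VGAT plates and 0 on the VGAT+Pitx3 plates. These were Hoxb3os (10), Hoxaas2 (7), Haglr (7), Hoxaas3 (3), Hoxb5os (2) and Hoxd3os1 (1). Of the 28 cells, 14 had no count of a Hox protein-coding gene and 5 were many-Hox cells.

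Slc32a1, the gene of the vesicular GABA transporter, was the only 1 of 66 genes looked at whose difference between Hox-positive and Hox-negative cells went in opposite directions at the stages. It was higher in positive cells on all 3 E16.5 plates (33.1 CPM on average) and lower on all 3 P0.5 plates (-62.1 CPM on average). The difference between the stages was not tested, and by the second plate label each stage holds plates of both directions.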

How the results depend on the processing

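With every cell thinned to 4000 counts, the mean share of Hox-positive cells was 1.63% at VGAT E16.5 and 1.95% at VGAT P0.5, and with at least 2 Hox counts asked for it was 1.89% at VGAT E16.5, 3.21% at VGAT P0.5, 0.658% on the VGAT+Pitx3 E16.5 plate and 0% on the P0.5 one. By the second plate label it was 9.32% at E16.5. Leaving out each plate gave 4.87 to 7.03% at VGAT E16.5 and 6.70 to 11.2% at VGAT P0.5. Between sorts, leaving out each plate gave 625 to 1397 called genes, the lowest without the VGAT+Pitx3 E16.5 plate, and 866 without the P0.5 one. Hoxb2 and Hoxb3 were called by DESeq2, and Hoxb2 also with the replicate block (908 genes called) and without VGAT E16.5 replicate 4. Between stages, DESeq2 called 944 genes, no filter 1588, the second plate label 1, the replicate block 210 and leaving out each plate 76 to 833. The log2 fold change of Hoxb2 reversed under the second plate label (-1.38), and leaving out each plate gave -0.071 to 1.33, the lowest without VGAT P0.5 replicate 3. Plates with the same replicate number correlated at 0.029 to 0.032 over 3 pairs in their deviations from the stage means, so the numbers do not pair plates.

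Between Hox-positive and Hox-negative cells, DESeq2 called 42 genes, no filter 367, spliced counts 55, at least 2 Hox counts 54, cells thinned to 4000 counts 0, cells with only Hoxa2, Hoxb2 or Hoxb3 179, and leaving out each plate 12 to 90. Over 46 genes and 773 values, 584 kept direction and side of the threshold, 132 lost the call, 34 gained it and 23 reversed. Of the called genes Chst2 (-2.50) and Hrk (-0.012) reversed, both after thinning. The other reversals were of genes that were called in neither fit. After thinning they were Pbx3 (-0.70), Pknox1 (0.45) and En1 (-0.76). Meis3 reversed with spliced counts (0.018), without cells over 2 times the median (0.010), with at least 2 Hox counts (0.13), without the many-Hox cells (0.044) and with only Hoxa2, Hoxb2 or Hoxb3 cells (0.086). Pbx2 reversed with no filter (-0.025), En2 with DESeq2 (0.027) and without the many-Hox cells (0.16), and Tal1 with no filter (-0.095), spliced counts (-0.0020), a higher minimum of genes per well (-0.033) and at least 2 Hox counts (-0.46). Leaving out each plate gave -0.11 to 0.066 for Meis3, -0.035 to 0.23 for Pbx2, -0.29 to 0.21 for En2 and -0.028 to 0.21 for Tal1. The cause was not tested. Single counts limit what can be read, since in 54 of the 88 positive cells the loss of 1 molecule would remove the cell from the Hox-positive set.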
